A study of Mus musculus with 6 samples.

Results

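The Tfh4 population of T follicular helper cells was set against the Tfh214 population in both Stat6 genotypes. The 4 libraries of these populations were taken out of the 6 in the series by their population and genotype labels: WT Tfh4, KO Tfh4, WT Tfh214 and KO Tfh214, with 1 library for each. WT cells had the label Stat6 WT and KO cells were Stat6 knockout. All came from untreated mice of the C57BL/6 strain, and no source used here states their age. The assay was ATAC-seq: a transposase inserts sequencing adaptors where DNA is not packed away, so read number reports how open a site is. Per the labels' protocols, sorting drew on 10 mice per genotype, 50000 cells went into a library, and tagmentation ran for 30 min at 37 °C. A library is therefore a pool, and no combination of genotype and population has a replicate. The p-values here set a difference only against the spread that genotype and population leave between single libraries, which may be technical. The estimate of that spread is shared across features. The gates of the sort and the tissue were not given in the sources used here, nor was the part of Stat6 that the KO allele lacks, so accessible peaks at Stat6 check no genotype label. The contrast asks how chromatin in Tfh4 cells differs from that in Tfh214 cells, and WT and KO give a separate pair of libraries each.

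T follicular helper cells are CD4 T cells that enter B cell follicles through the chemokine receptor CXCR5 and help B cells make antibody. Their program rests on the repressor BCL6, and MAF drives their main cytokine, IL-21. They also make IL-4, which acts on B cells through the IL-4 receptor and STAT6 and promotes class switching. In ATAC-seq, start sites of genes that a cell can transcribe are the most open places, while enhancers lie in introns and between genes and are weaker and more specific to a cell type.

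Reads in peaks came to 1271755 in WT Tfh214, 1373218 in WT Tfh4, 798555 in KO Tfh214 and 1238585 in KO Tfh4, spread over 282898 peaks. Most peaks were therefore thin, with a median of 14 reads over the 6 libraries. Levels are given in CPM, read counts scaled to a sum of 1000000 over the listed peaks of a library. Ratios are Tfh4 over Tfh214, with exact binomial 95% intervals that cover counting error only. Pooled ratios add the reads of WT and KO before the division. 2 libraries stood apart in ways that touch the contrast. KO Tfh214 was the shallowest, with 21.9% of peaks at 0 reads against 4.34% in WT Tfh4. Chromosome X took 0.958% of reads in WT Tfh4 against 1.21% in each of the other 3 libraries of the contrast. Both populations had peaks at the defining genes of T follicular helper cells, Cxcr5, Bcl6, Pdcd1, Icos and Maf, in each library.

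Start-site sequences are shown for Il21 and Il4, the cytokine genes, and for Dock4 and Ube3a, whose start-site peaks were among the 10 clearest differences. Each line gives the 150 bases before a start site from RefSeq, assembly GRCm38.p6, 5′ to 3′ along the gene, with CpG pairs in capitals. The peaks have coordinates in mm9, and no position was carried from one build to the other.
Il21, chr3:37232637-37232786, minus strand: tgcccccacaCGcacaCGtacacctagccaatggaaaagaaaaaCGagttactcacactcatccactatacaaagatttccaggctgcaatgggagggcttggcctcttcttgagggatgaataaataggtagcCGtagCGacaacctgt
Il4, first entry, chr11:53617339-53617488, minus strand: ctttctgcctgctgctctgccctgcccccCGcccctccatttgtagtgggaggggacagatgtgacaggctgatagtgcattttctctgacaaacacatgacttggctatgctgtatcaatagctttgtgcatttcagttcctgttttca
Il4, second entry, chr11:53618666-53618815, minus strand: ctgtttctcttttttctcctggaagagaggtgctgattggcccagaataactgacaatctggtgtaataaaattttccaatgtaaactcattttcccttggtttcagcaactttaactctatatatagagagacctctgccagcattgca
Dock4, chr12:40445903-40446052, plus strand: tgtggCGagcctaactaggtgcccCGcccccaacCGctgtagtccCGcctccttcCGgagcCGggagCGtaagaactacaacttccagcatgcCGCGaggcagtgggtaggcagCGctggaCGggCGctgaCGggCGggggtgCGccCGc
Ube3a, chr7:59228600-59228749, plus strand: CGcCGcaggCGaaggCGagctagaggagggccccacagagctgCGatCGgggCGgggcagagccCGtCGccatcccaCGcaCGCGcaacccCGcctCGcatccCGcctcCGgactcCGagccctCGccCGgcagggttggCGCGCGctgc
The Il21 stretch held 5 CpG pairs and the Il4 stretches 1 and 0, against 16 at Dock4 and 22 at Ube3a, and the median over all 32851 listed promoters was 4. Dock4 and Ube3a were thus CpG-rich, Il21 lay near the median and Il4 below it. The letters GGAAA, the core that NFAT factors read, stood on either strand 2 times in the Il21 stretch, 2 times in the second Il4 stretch and 0 times in the first Il4 stretch and at Dock4 and Ube3a. Atp5j, also among the 10, held it 2 times in each of its 2 entries, and 37.6% of all promoters of this length held it. Such matches describe letters and are not binding sites.

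Strong peaks were lower in Tfh4 than in Tfh214, and thin peaks away from start sites were higher, in both genotypes. In each genotype the Tfh4 library also held more reads in peaks than the Tfh214 library. With 1 library per genotype and population, population cannot be told apart from the depth or background of a library. Start-site peaks took 31% of reads in WT Tfh214 (Wilson 95% interval 30.9 to 31.1) and 27.6% in WT Tfh4 (27.6 to 27.7). In KO the shares were 34.9% (34.8 to 35) and 29.7% (29.6 to 29.8). Tfh4 minus Tfh214 came to -3.38 percentage points in WT (-3.49 to -3.27) and -5.27 in KO (-5.4 to -5.14), beyond counting error in each pair. An exact permutation test of 2 libraries against 2 cannot go below p = 0.333, and no other test over libraries was run on these shares. Intergenic peaks took 35.1% in WT Tfh214 and 36.2% in WT Tfh4, and 32.5% and 35.5% in KO. Intron peaks took 20.5% and 21.6% in WT and 19.3% and 21.1% in KO.

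Away from start sites, the ratio of Tfh4 to Tfh214 passed from above 1 in thin peaks to below 1 in strong ones. Among peaks away from start sites with 10 to 12 reads over the 6 libraries, it was 1.14 in WT (95% interval 1.13 to 1.15) and 1.12 in KO (1.12 to 1.13). For those with 301 to 600 reads it was 0.803 (0.784 to 0.822) and 0.830 (0.809 to 0.851). At start sites the strong classes were alike in both genotypes, with 0.861 and 0.830 at 301 to 600 reads. The thin start-site classes were not: at 10 to 12 reads the ratio was 1.25 (1.21 to 1.3) in WT and 0.984 (0.947 to 1.02) in KO. Peaks of middle strength away from start sites also separated the pairs, at 0.773 (0.765 to 0.782) in WT and 0.891 (0.880 to 0.902) in KO for 121 to 300 reads. Whether WT and KO differ in these classes was not tested beyond counting error, because each pair is a single comparison of libraries. CPM sums to a fixed total, so a lower share in strong peaks goes with a higher share elsewhere. Thin and strong classes are therefore not separate results. Listed peaks held at least 10 reads over the 6 libraries, and the part of that floor in the thin classes was not tested.

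**Figure D1:**
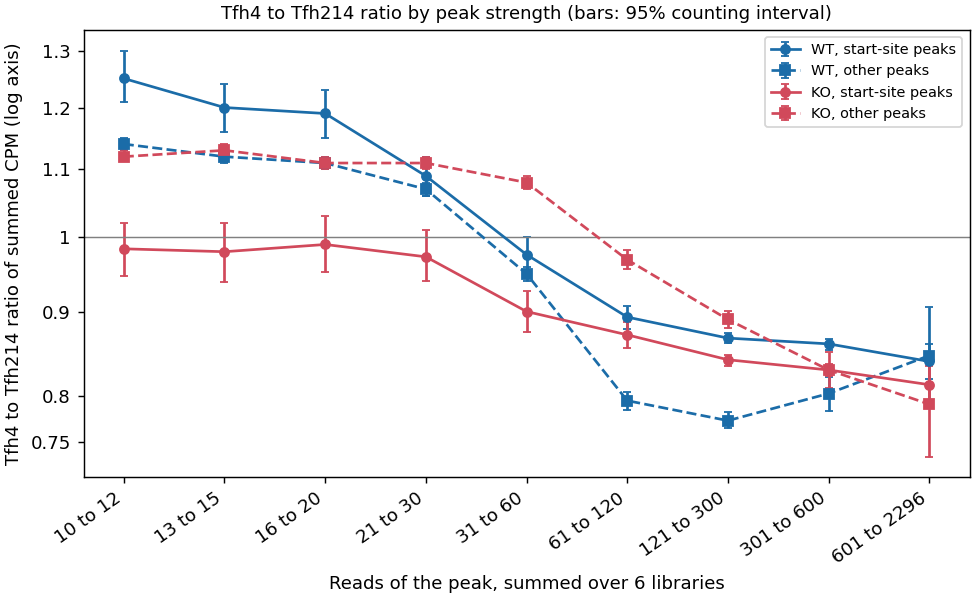
Tfh4 to Tfh214 ratio of summed CPM (log axis) for classes of peaks by total reads, in WT and KO, for start-site and other peaks, with 95% counting intervals as bars. Strong classes lie at 0.773 to 0.891 from 121 reads upward in all 4 lines, and thin peaks away from start sites lie above 1 in both genotypes.

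A linear model of genotype and population was fitted with limma to log2(CPM + 1) over all 6 libraries, for the 8986 peaks that averaged 20 reads or more. It called 178 peaks at a Benjamini-Hochberg adjusted p under 0.05, which is 1.98% of those tested, and all 178 were lower in Tfh4. Among them were start sites of Cpeb2, which encodes a regulator of mRNA translation, and of Dock4, an activator of small GTPases. Start sites of Atp5j, a subunit of the mitochondrial ATP synthase, and of Ube3a, a ubiquitin ligase, were lower too. The fold scale is that of log2(CPM + 1), which understates the change of low peaks.

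At Cpeb2 (chromosome 5, 43623828 to 43626580, start site) the level was 148 CPM in WT Tfh214 and 165 CPM in KO Tfh214, and 91.0 CPM in WT Tfh4 and 99.3 CPM in KO Tfh4. The Tfh214 and Tfh4 levels did not overlap, and the Tfh21 libraries, at 144 and 151 CPM, lay with Tfh214. The log2 difference was -0.71 ± 0.10 (SE; limma adjusted p = 1.03e-05), and the pooled ratio was 0.614 (0.518 to 0.727). It was -0.47 with median-of-ratios scaling, where adjusted p = 0.172, and over 17 alternatives the adjusted p ran from 1.45e-11 to 1.

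Dock4 (chromosome 12, 41171963 to 41173171, start site) stood at 79.4 and 100 CPM in WT and KO Tfh214 against 50.2 and 54.9 CPM in Tfh4. Its log2 difference was -0.75 ± 0.14 (SE; limma adjusted p = 0.00193). Atp5j (chromosome 16, 84834735 to 84836190, start site) stood at 94.4 and 111 CPM against 58.3 and 71.0 CPM, a difference of -0.66 ± 0.12 (SE; limma adjusted p = 0.00193). In both genes the lower Tfh214 library lay above the higher Tfh4 library. Ube3a (chromosome 7, 66483495 to 66484820, start site) stood at 89.6 and 103 CPM against 57.5 and 68.6 CPM, a difference of -0.60 ± 0.13 (SE; limma adjusted p = 0.0194). Cpeb2, Dock4 and Atp5j were called under 11 of 17 alternatives each and Ube3a under 7.

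The other 6 of the 10 peaks with the smallest p held fewer reads. In intron 4 of Rassf6 (chromosome 5, 91040527 to 91041659) the 2 pairs were unequal, with 51.1 and 15.3 CPM in WT and 43.8 and 33.9 CPM in KO for Tfh214 and Tfh4. The start site of Tpd52 (chromosome 3, 9004054 to 9004725), which encodes a protein of vesicle traffic, had 28.3 and 35.1 CPM in Tfh214 and 10.2 and 16.1 CPM in Tfh4, and -1.23 ± 0.26 (SE; limma adjusted p = 0.0194). In intron 2 of Nav2 (chromosome 7, 56619828 to 56620320) the levels were 25.9 and 28.8 CPM against 8.74 and 13.7 CPM. The rest were start sites of Zfp954, a zinc finger gene, and Ywhaq, a 14-3-3 protein gene, and an intergenic peak on chromosome 8 (35460736 to 35461595), with differences of -0.75, -0.71 and -1.10. All 10 had higher levels in both Tfh214 libraries than in either Tfh4 library. They were chosen by the p of this same difference, so that separation is no further support. Of all 8986 tested peaks, 60% were lower in Tfh4 in both pairs. The share of all peaks or genes whose populations do not overlap was not counted, here or at the other features so described.

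**Figure D2:**
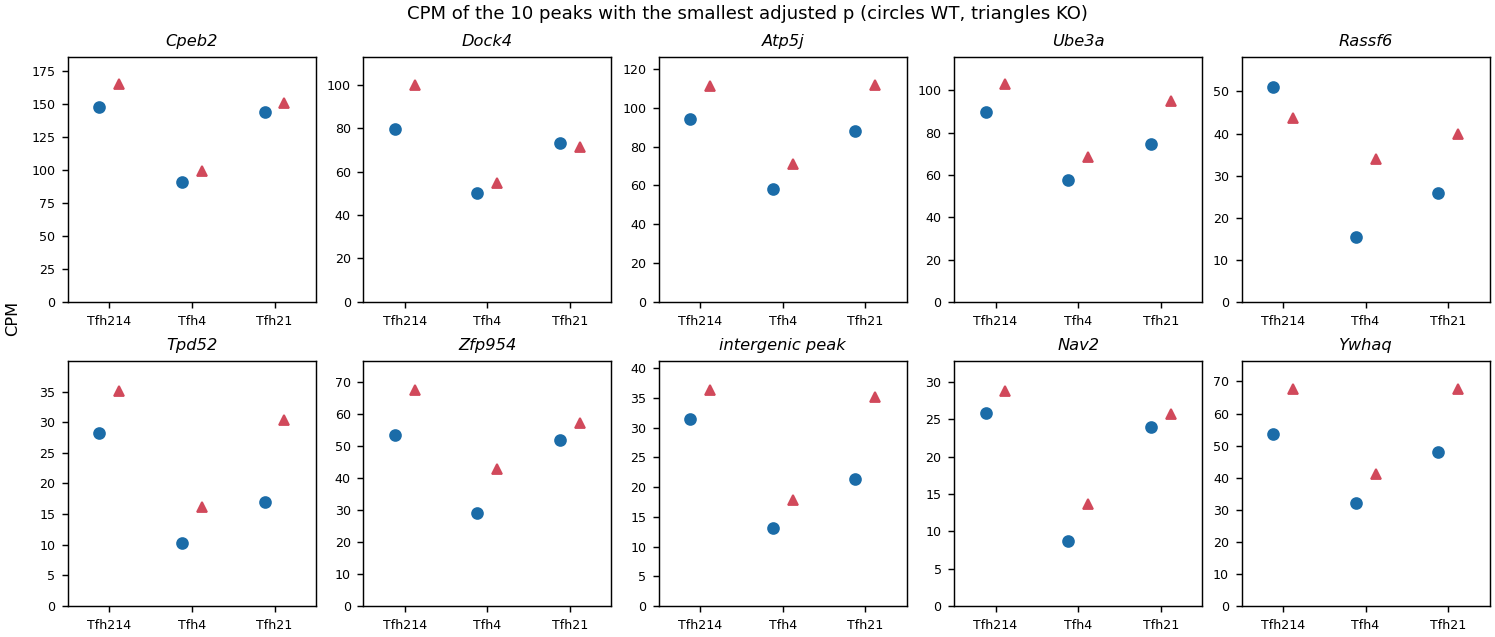
CPM at the 10 peaks with the smallest limma p, by population, with WT as circles and KO as triangles and 1 library a point, on axes that start at 0. Tfh4 points lie below both Tfh214 points in every panel, and at Cpeb2 the Tfh21 points, 144 and 151 CPM, lie beside those of Tfh214.

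Of the 178 peaks, 124 lay at a start site, which is 69.7% against 75.9% of all tested peaks, 25 were intergenic and 15 lay in introns. Their log2 differences ran from -1.3 to -0.34 with a median of -0.65, against -0.23 as the median over the 8986. The calls depended on that common shift. With median-of-ratios scaling, which sets the median of the tested peaks near 0, limma called 0 peaks, with 509 at an unadjusted p under 0.05 (241 higher and 268 lower) against 1999 (11 higher and 1988 lower) under CPM. On the recovered reads edgeR and DESeq2 called 0 as well, with 288 and 2 at an unadjusted p under 0.05. Leaving out WT Tfh21 or KO Tfh21, which enter the model only through its spread, left 4 calls each, and leaving out WT Tfh214 or WT Tfh4 left 48 or 97.

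In the Tfh21 libraries, these peaks were closer to Tfh214, as were most tested peaks. The 178 were selected for a low Tfh4 against Tfh214, and the Tfh21 libraries enter the model's spread. The values below are therefore a description and no separate support for the calls. The mean log2 level of Tfh21 lay nearer to Tfh214 than to Tfh4 at 158 of the 178 peaks (88.8%), against 73.9% of all tested peaks. The median difference of the 178 was -0.49 for Tfh4 against Tfh21 and 0.14 for Tfh214 against Tfh21. Over all tested peaks these medians were -0.27 and -0.04.

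The promoters of the called start-site peaks were CpG-rich, as are those of strong peaks in general. RefSeq promoters were matched by symbol for 94 of the 124 called peaks and 5383 of the 6821 tested start-site peaks. In the 250 bases before the start the called set had a median of 19 CpG pairs and the tested set 18, against 6 over all 32851 listed promoters. Divided by CpG count, the tested peaks had medians of -0.25, -0.21, -0.23 and -0.22 from the poorest class (0 to 12 pairs) to the richest (25 to 56). The pairs ran opposite ways, from -0.25 to -0.17 in WT and from -0.23 to -0.27 in KO. The called share was 1.38%, 1.57%, 1.91% and 2.17% in the same order of classes, and these differences were not tested. GGAAA stood in 36.2% of the called set, 52.6% of the tested set and 55.6% of all promoters. The GC box GGGCGG stood in 63.8%, 66.4% and 32.7%. TTCNNNNGAA, the spacing that STAT6 prefers, like the other motifs searched on both strands, stood in 3.19%, 4.18% and 5.85%.

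WT and KO shared the common shift, and beyond it their differences were nearly uncorrelated. Both pairs had a median log2 difference of -0.23 over the 8986 peaks, and 60% of these peaks were lower in Tfh4 in both pairs. Across peaks, the difference in WT and that in KO had a Pearson r of -0.08, as a description over peaks of libraries that share no sample between the pairs. The differences had an SD of 0.33 in WT and 0.32 in KO, at a median of 218 reads per peak over the 6 libraries. Counting error is part of that spread and lowers any correlation, and its part was not estimated. A low r therefore does not show that WT and KO differ. At gene level r was 0.08 over 10825 genes and 0.12 over the 1432 genes with a mean of at least 100 reads. In 2315 windows of 1 Mb r was 0.00, and limma called 0 windows, with 117 at an unadjusted p under 0.05 (edgeR and DESeq2 also called 0, with 135 and 15).

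**Figure D3:**
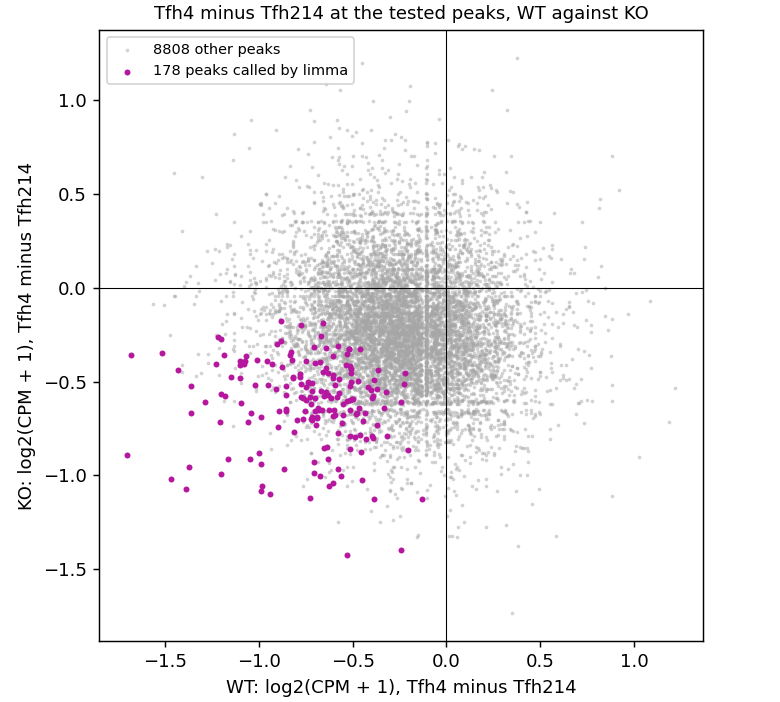
Difference of log2(CPM + 1), Tfh4 minus Tfh214, at each of 8986 peaks in WT (horizontal) and KO (vertical), with the 178 peaks called by limma in purple. The cloud is centred at -0.23 on both axes and shows no slope (r = -0.08), and all called peaks lie below 0 on both axes.

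Genes of T follicular helper identity mostly had ratios below 1, and Ascl2, Cebpa and Il21 were the lowest, but under another scaling the list centred on 1. Reads were summed over all peaks that the deposited table gives to a gene, and a gene was counted where the higher population had at least 20 pooled reads, the ratio was at least 1.5-fold and WT and KO went the same way. By this rule 369 of 14456 genes (2.55%) were lower in Tfh4 and 892 (6.17%) were higher. Of the 29 genes of the identity list 3 (10.3%) were lower and 0 higher. The WT and KO pairs both pointed lower at 20 of the 29, both higher at 0, and apart at 9. Over all 14456 genes these counts were 4558, 3337 and 6561. The median ratio of the list was 0.866 against 0.975 over all 14456 genes, and 13 intervals lay below 1 against 828 of the 14456. With median-of-ratios scaling the medians were 1.01 and 1.14, and 1 interval of the list lay below 1 (Cebpa) and 1 above (Il6st). Over all 14456 genes 72 intervals then lay below 1 and 2550 above. The list was chosen with earlier results of these data known, and limma called 0 of its 27 tested genes, with 8 at an unadjusted p under 0.05, all lower. In bulk libraries, fewer cells with an open site and fewer cuts per cell cannot be told apart.

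Il21, the cytokine gene that marks these cells, stood at 36.2 CPM in WT Tfh214 and 19.7 CPM in WT Tfh4, and at 23.8 and 21 CPM in KO. Both Tfh4 levels lay below both Tfh214 levels, but the KO pair was nearly level. The pooled ratio was 0.646 (0.441 to 0.943), from 0.544 (0.325 to 0.893) in WT and 0.882 (0.470 to 1.69) in KO. In WT the lower level lay mostly in the introns. The start-site peaks held 19 and 18 reads in WT and 7 and 13 in KO for Tfh214 and Tfh4, while the 7 intron peaks held 27 and 9 in WT and 12 and 13 in KO. These reads are not scaled, and the KO libraries held 798555 reads in peaks for Tfh214 and 1238585 for Tfh4. Scaled to depth, the KO introns were thus also lower in Tfh4 and the KO start-site peaks were not. With start-site peaks alone the pooled ratio was 0.945. The main start-site peak lay on chromosome 3, 37131555 to 37131984.

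Cxcr5, the receptor gene for entry into follicles, stood at 61.3 and 78.9 CPM in WT and KO Tfh214 and at 49.5 and 45.2 CPM in Tfh4. The populations did not overlap, and the Tfh21 libraries, at 64.1 and 75.2 CPM, lay with Tfh214. The pooled ratio was 0.697 (0.543 to 0.894), on a limma log2 difference of -0.55 ± 0.17 (SE; adjusted p = 0.345, range over 18 alternatives 0.0753 to 1). Its start-site peak (chromosome 9, 44334474 to 44335058) gave 34 and 30 reads in WT and 27 and 21 in KO. A peak in intron 1 (44323625 to 44324358) gave 37 and 27 reads in WT and 29 and 26 in KO, so both of the gene's strong peaks were lower in Tfh4.

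Maf, which drives Il21 and Il4, was lower in Tfh4 at its start site (chromosome 8, 118230833 to 118232250). That peak stood at 74.7 and 98.9 CPM in WT and KO Tfh214 and at 53.9 and 63.0 CPM in Tfh4, a log2 difference of -0.55 ± 0.13 (SE; limma adjusted p = 0.0218, range over 17 alternatives 0.0226 to 1). Btla, an inhibitory receptor gene, and Cebpa, a transcription factor gene of the list, were the other 2 of 18 list genes with a called peak, both at the start site. Over all genes with a tested peak, 152 of 7228 had a called one. Btla stood at 79.4 and 85.2 CPM against 49.5 and 64.6 CPM, and Cebpa at 47.2 and 47.6 CPM against 29.1 and 29.9 CPM. Their limma log2 differences were -0.53 ± 0.13 (SE; adjusted p = 0.0307, range over 17 alternatives 0.0206 to 1) and -0.67 ± 0.18 (SE; adjusted p = 0.0414, range 0.0415 to 1). With median-of-ratios scaling none of the 3 was called (limma adjusted p = 0.803 at Maf, 0.808 at Btla and 0.803 at Cebpa).

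Of the receptor genes of the list, Pdcd1 and Tigit had intervals below 1 under CPM that held 1 with median-of-ratios scaling, and Icos held 1 under both. Pdcd1, which encodes PD-1, stood at 72.3 and 78.9 CPM in WT and KO Tfh214 and at 52.4 and 62.2 CPM in Tfh4, a pooled ratio of 0.762 (0.604 to 0.960). Tigit was at 0.734 (0.578 to 0.932) and Pou2af1, a coactivator gene, at 0.765 (0.602 to 0.973). Ascl2, a transcription factor that induces Cxcr5, had the lowest ratio of the list, 0.581 (0.359 to 0.931), on 28 and 13 reads in WT and 17 and 20 in KO. Icos and Cd40lg, needed for help to B cells, were at 0.839 (0.634 to 1.11) and 0.889 (0.571 to 1.39), so a difference was not detectable at this depth.

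Bcl6 had a pooled ratio near 1, with WT and KO apart. Its 15 peaks stood at 53.5 CPM in WT Tfh214 and 60.4 CPM in WT Tfh4, and at 58.9 and 47.6 CPM in KO. The populations overlapped, and the pooled ratio was 0.979 (0.760 to 1.26). That interval also holds the list median of 0.866, so Bcl6 was not separated from the rest of the list. Tcf7 and Il6st, which encode an early T cell factor and the shared receptor chain of IL-6 signalling, were at 0.990 and 1.09, with WT and KO apart.

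Summed over the list, start-site peaks gave 0.8 in WT and 0.807 in KO, and other peaks 0.886 and 0.839. Over all genes these sums were 0.891 and 0.849 at start sites and 1.07 and 1.07 elsewhere. The list thus lay below the sums of all genes in both parts and both genotypes. Peaks were not matched for strength in these sums, and thin peaks had higher ratios than strong ones. Genes of type 2 T cells, such as Gata3, gave 0.855 in WT and 0.883 in KO at start sites and 0.837 and 0.982 elsewhere. The type 1 list, with Tbx21, gave 0.954 and 0.86 at start sites and 1.14 and 1.08 elsewhere. Genes of T cell receptor signalling, a list for T cells at large, gave 1.02 and 0.869 at start sites and 0.972 and 0.859 elsewhere, with a median gene ratio of 0.929. Widely used promoters such as Tbp, B2m and Rplp0 had a median of 0.9, with 1 of 20 lower and 0 higher, and limma called the start site of Tbp (adjusted p = 0.0352).

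**Figure D4:**
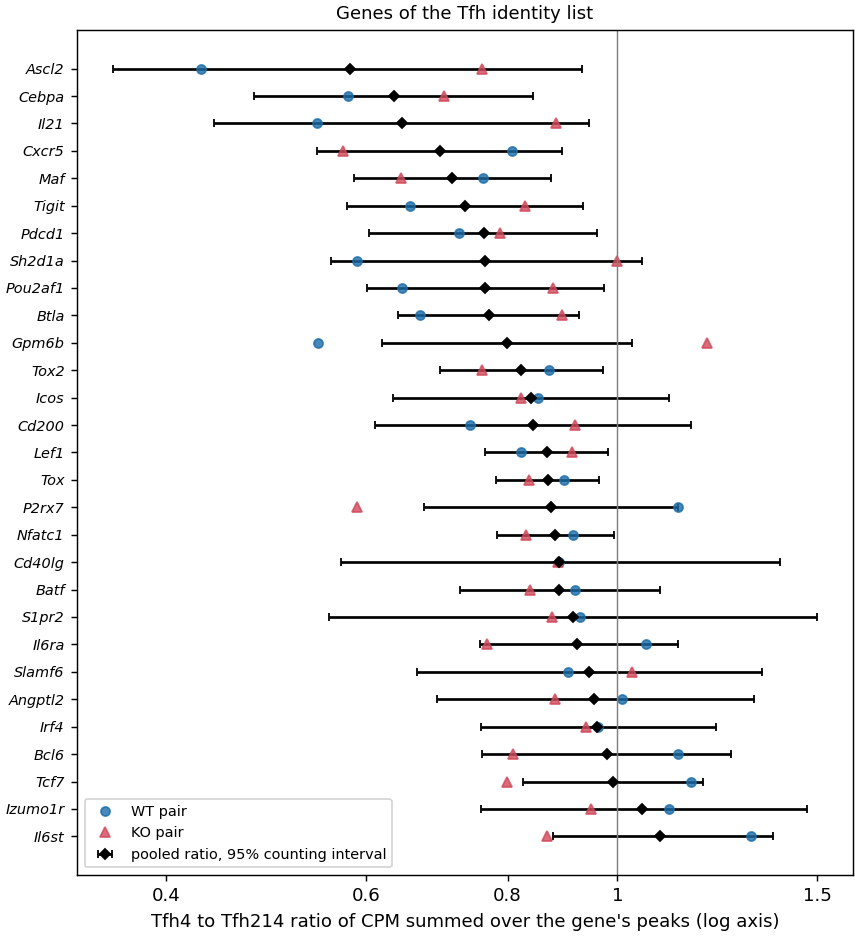
Tfh4 to Tfh214 ratio (log axis) of the 29 genes of the Tfh identity list, sorted, with pooled ratios and 95% counting intervals in black, the WT pair as circles and the KO pair as triangles. Ascl2 (0.581) to Pou2af1 (0.765) lie left of 1 at the top, and Bcl6 (0.979) sits near 1 with WT and KO on opposite sides.

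Il4 was thinly covered in both populations. The gene had 2 peaks, both at its start (chromosome 11, 53430745 to 53430999 and 53431680 to 53432106). Together they gave 12 and 10 reads in WT and 7 and 6 in KO for Tfh214 and Tfh4, or 9.44 and 7.28 CPM and 8.77 and 4.84 CPM. The pooled ratio was 0.668 (0.321 to 1.37), so a difference was not detectable at this depth. Both populations lay above Tfh21, which held 2 reads in each genotype. Il13, the neighbouring type 2 cytokine gene, was at 0.991 (0.433 to 2.32).

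Of the other type 2 genes, 11 were measured, of which 1 was higher by the rule and 0 lower, with a median ratio of 0.929. Gata3, the main regulator of type 2 T cells, stood at 95.1 and 79.4 CPM in WT and 83.9 and 71.9 CPM in KO, a ratio of 0.835 (0.680 to 1.02). Nfil3, a cytokine regulator gene, was at 0.730 (0.562 to 0.947). Ccr4, a chemokine receptor gene, was the one higher gene, at 1.83 (0.995 to 3.53) with 10 and 20 reads in WT and 6 and 17 in KO. The median of the list was 0.741 in the WT pair and 1.15 in the KO pair, and that difference was not tested.

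Of the IL-4 receptor, STAT and SOCS genes, which carry and limit cytokine signals, 21 were measured, with 1 higher and 0 lower and a median of 1.01. Tyk2, a Janus kinase gene, stood at 29.9 and 43.0 CPM in WT and 30.1 and 49.2 CPM in KO, a ratio of 1.53 (1.12 to 2.12) and 1.09 with start-site peaks alone. Il4ra was at 1.05 (0.811 to 1.37) and Stat6 at 0.832 (0.643 to 1.08). Limma called none of the 18 tested genes of this list, with 1 at an unadjusted p under 0.05.

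Among type 1 genes, Cxcr6 and Il18r1 went opposite ways, each alike in WT and KO. Cxcr6, a chemokine receptor gene of tissue-resident and effector T cells, stood at 16.5 and 17.5 CPM in WT and KO Tfh214 and at 6.55 and 7.27 CPM in Tfh4, on 21, 14, 9 and 9 reads. Its ratio was 0.408 (0.217 to 0.740). Median-of-ratios scaling gave 0.477 (0.254 to 0.865). Il18r1, which encodes an IL-18 receptor chain, stood at 22.0 and 22.5 CPM in Tfh214 and at 35 and 46.0 CPM in Tfh4. Its ratio was 1.81 (1.27 to 2.62), on a limma log2 difference of 0.82 ± 0.22 (SE; adjusted p = 0.333, range over 16 alternatives 0.131 to 1). Neither gene's populations overlapped. Tbx21, the regulator of type 1 T cells, was at 1.16 (0.789 to 1.71), and 1 gene of 10 in the list was higher and 1 lower.

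Some genes of naive and memory T cells had more reads in Tfh4. Il7r, the receptor gene for the survival cytokine IL-7, had the largest ratio of any list gene, with 5.50 CPM in WT Tfh214 and 1.25 CPM in KO Tfh214 against 11.7 and 21.8 CPM in Tfh4. These levels rest on 7, 1, 16 and 27 reads. The pooled ratio was 4.26 (1.98 to 10.5), and the ratio in WT was 2.12. The gene's start-site peak (chromosome 15, 9459452 to 9459693) held 2 and 0 reads in Tfh214 and 7 and 7 in Tfh4. Dapl1 was at 2.3 (1.09 to 5.29). Id3, an inhibitor of E proteins, went the other way at 0.453 (0.248 to 0.807), and almost all of that lay in KO, with 19 and 5 reads against 16 and 15 in WT. Of the 16 genes measured 2 were higher and 2 lower, beside 6.17% and 2.55% of all genes.

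Batf3, an AP-1 family factor, stood at 9.44 and 8.77 CPM in WT and KO Tfh214 and at 21.8 and 19.4 CPM in Tfh4, with no overlap. The ratio was 2.25 (1.31 to 4.02), nearly equal in WT (2.32) and KO (2.21), on 12, 7, 30 and 24 reads. All 3 of its start-site peaks were higher in Tfh4 in both pairs. Among the 20 factors of its list, which T cell receptor signals induce, it was the 1 higher gene, and 0 were lower. Nr4a3 was at 1.32 (1.01 to 1.74) but 0.922 with start-site peaks, Nfatc1 at 0.881 (0.783 to 0.992) but 1.03 with median-of-ratios scaling, and Fos at 0.734 (0.555 to 0.972).

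Havcr2, which encodes the inhibitory receptor TIM-3, was at 1.90 (1.2 to 3.06). WT Tfh214 held 8.65 CPM and WT Tfh4 26.9 CPM, while the KO libraries held 21.3 and 24.2 CPM, so most of the difference came from the low WT Tfh214 level. Entpd1, which encodes CD39, was at 1.34 (1.08 to 1.68). Of the 15 inhibitory and costimulatory receptor genes measured 1 was higher and 2 lower, with a median of 0.846, beside 6.17% and 2.55% of all genes and their median of 0.975. The 2 lower were Cd160 and Cd27, each at 0.639 (0.378 to 1.07).

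Cd44, the receptor gene for hyaluronan that marks activated T cells, had fewer reads in Tfh4 over its 36 peaks. It stood at 210 and 205 CPM in WT and KO Tfh214 and at 126 and 167 CPM in Tfh4, a ratio of 0.699 (0.607 to 0.804). Median-of-ratios scaling gave 0.817 (0.710 to 0.940). With that scaling, 72 of all 14456 genes had intervals below 1 and 2550 had intervals above 1. List genes with intervals above 1, such as Il7r, Il18r1 and Batf3, are described above. The 5 list genes whose intervals stayed below 1 under both scalings were Cebpa, Cxcr6, Id3, Tbp and Cd44 itself. In limma its log2 difference was -0.51 ± 0.13 (SE; adjusted p = 0.307, range over 17 alternatives 0.0333 to 1). Intron 1 held its strongest peaks, among them those at 102713902 to 102714560 and 102726645 to 102727131 on chromosome 2, with 40 and 30 reads in WT and 40 and 41 in KO for the first and 35 and 18 and 16 and 21 for the second.

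**Figure D5:**
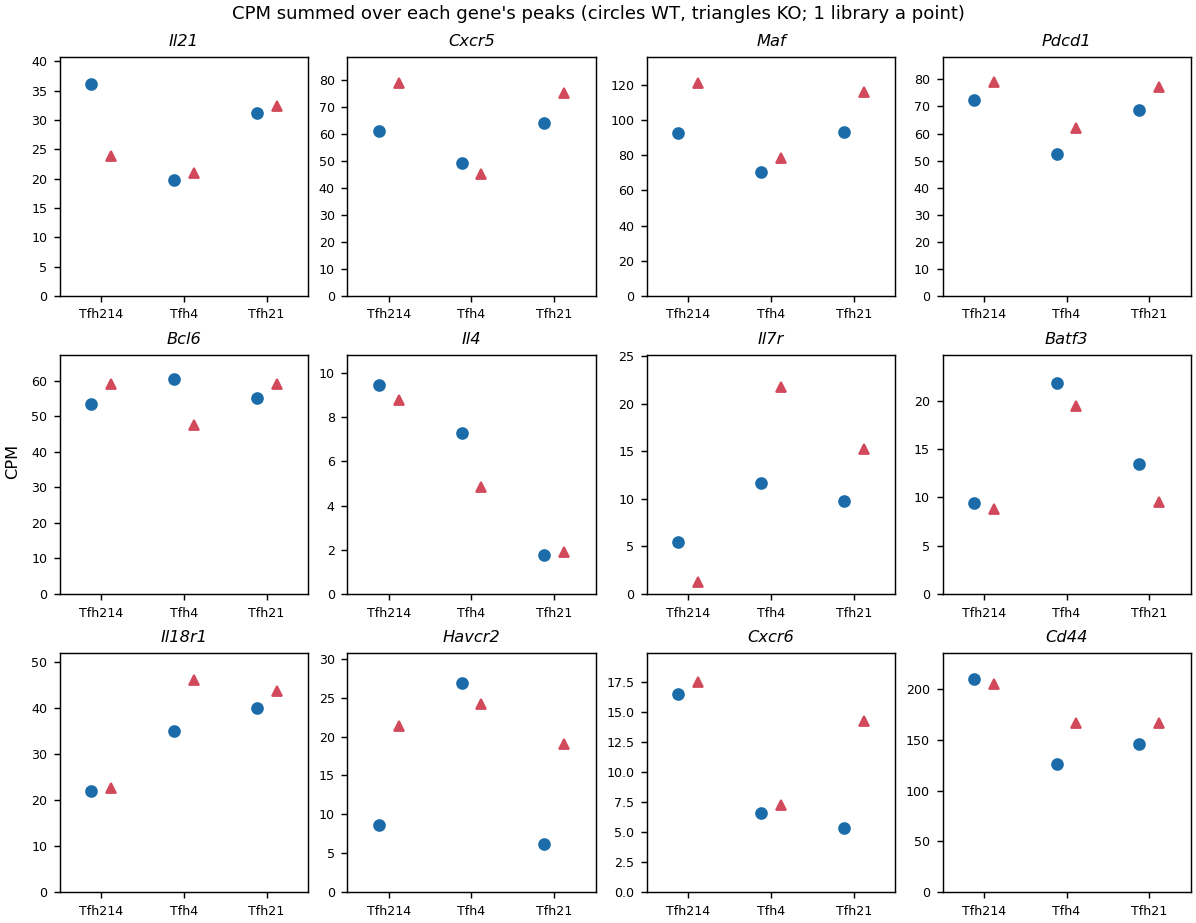
CPM summed over the peaks of 12 genes in each population, WT as circles and KO as triangles, 1 library a point, on axes that start at 0. Cxcr5, Maf, Pdcd1, Cxcr6 and Cd44 are lower in both Tfh4 libraries than in both Tfh214 libraries, Il7r, Batf3 and Il18r1 are higher, and Bcl6 overlaps. Several of the 12 were named for their ratios, and the share of all genes so separated was not counted, so the separation is a description only.

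Summed markers of B cells, of myeloid and dendritic cells and of CD8 and NK cells stood higher in both Tfh4 libraries than in the Tfh214 library of the same genotype, and those of erythroid and other lineages did not. The B cell list had a median ratio of 1.27, with 3 of 10 measured genes higher (30.0%) and 0 lower, against 6.17% and 2.55% of all genes. Fcrla was at 3.57 (1.44 to 10.6), Fcer2a, which encodes CD23, at 1.94 (1.13 to 3.45) and Blnk at 1.54 (1.01 to 2.39). Of the 16 genes 13 had a peak, and Ms4a1, Cd79a and Vpreb3 had none. The list summed to 283 and 242 CPM in WT and KO Tfh214 and to 323 and 283 CPM in Tfh4. Of the defining genes, Cd79b held 1 to 6 reads in each library of the contrast, and Pax5 was at 0.818 (0.666 to 1.01). Myeloid and dendritic genes summed to 206 and 185 CPM in Tfh214 and to 248 and 245 CPM in Tfh4. Adgre1 was at 2.56 (1.35 to 5.20) and Spi1 at 0.881. CD8 and NK genes summed to 35.4 and 21.3 CPM against 51.0 and 44.4 CPM. Those sums rest on 45 and 17 reads in WT and KO Tfh214 and 70 and 55 in Tfh4, with 3 genes measured. Thin peaks away from start sites were higher in Tfh4 in general, and the marker lists were not compared with peaks of like strength. Cd68, Fcgr3, Siglech and Tyrobp of the myeloid list and Cd8a and Ncr1 of the CD8 and NK list had no peak. The part of such cells in the higher values of Il7r, Batf3 and the other genes above was not tested. At start sites, the B cell list summed to ratios of 1.09 in WT and 1.53 in KO, against 0.891 and 0.849 over all genes. These rest on 33 and 39 reads in WT and 16 and 38 in KO for Tfh214 and Tfh4. Away from start sites, the list summed to 1.15 in WT and 1.14 in KO, against 1.07 and 1.07 over all genes. Lists of erythroid and other lineages summed to 146 and 144 CPM against 144 and 118 CPM.

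Lists of other T cell programs had medians near that of all genes. Regulatory T cell genes had a median of 0.969 with 1 of 9 higher, Ikzf4 at 1.52 (1.01 to 2.33). Type 17 genes had a median of 0.936, with 0 of 7 in either direction, and effector genes 0.955, with 1 of 6 higher. Cell cycle genes had a median of 0.957, with 0 of 29 in either direction, although Cdkn2c, which encodes a cyclin-dependent kinase inhibitor, had a called start-site peak (limma adjusted p = 0.0401). Of the 17 migration genes, 0 were called either way, with a median of 0.997.

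Which peaks are read sets the direction at gene level. When only start-site peaks were summed, 167 of 9162 genes (1.82%) were higher in Tfh4 and 480 (5.24%) lower, the reverse of the split over all peaks. In limma, 156 of 7087 genes (2.2%) were then called, all lower, against 0 of 10825 over all peaks, where 1093 passed 0.05 unadjusted. There edgeR and DESeq2 also gave 0 calls, with 977 and 43 unadjusted.

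Single peaks with 2-fold differences were mostly thin. By the rule of at least 20 pooled reads in the higher population, 600 of 16426 peaks (3.65%) were at least 2-fold higher in Tfh4 and 283 (1.72%) lower, with WT and KO the same way. The higher peaks held a median of 38 reads over the 6 libraries and the tested peaks 132. Intergenic peaks made up 45.5% of the higher ones and 41.3% of the lower ones, against 21.4% of the tested peaks, and start sites 7.17% and 16.6% against 54.5%. In the Tfh21 libraries the higher peaks had a median of 4.54 CPM, between 3.15 CPM in Tfh214 and 8.47 CPM in Tfh4, and the lower peaks 8.73 CPM, between 11.3 and 5.01 CPM.

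The largest ratios among peaks higher in Tfh4 were of this thin kind. An intergenic peak on chromosome 5 (135394986 to 135395329) held 0 reads in either Tfh214 library and 12 and 10 in WT and KO Tfh4, which is at least 5.81-fold higher against a floor of 3 reads over the group. One on chromosome 9 (85490105 to 85490782) held 0 against 8 and 13 reads, at least 5.55-fold. The start site of Sap25 (chromosome 5, 138082012 to 138082563) held 0 and 1 reads in Tfh214 and 10 and 12 in Tfh4, a ratio of 17.4 (2.82 to 720). An intron 11 peak of Pcx, the pyruvate carboxylase gene, held 1 and 0 against 9 and 11 reads. Choosing the largest ratios inflates them, and the intervals do not cover that choice.

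On the lower side, the start site of Rcan1 (chromosome 16, 92400243 to 92400614), which encodes an inhibitor of calcineurin, held 13 and 7 reads in WT and KO Tfh214 and 4 and 2 in Tfh4, a ratio of 0.238 (0.0781 to 0.614). The start site of Armcx2 on chromosome X (131343360 to 131343718) held 16 and 8 against 1 and 6 reads, at 0.231 (0.0841 to 0.553), in the WT Tfh4 library with the low share of chromosome X. In intron 10 of Stk3, which encodes the kinase MST2, 19 and 13 reads stood against 3 and 7, at 0.248 (0.109 to 0.516).

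With at least 40 pooled reads, 5 of 9583 peaks (0.0522%) were 2-fold higher and 31 (0.323%) lower, and these were singled out after their values were seen. The 5 were an intron 7 peak of Cytip, which encodes a regulator of lymphocyte adhesion, the start site of Mrpl55, a mitochondrial ribosome gene, intron peaks of Man1a and Slc9a9, and an intergenic peak on chromosome 3. Cytip (chromosome 2, 57987555 to 57988050) held 9 and 21 reads in WT and 6 and 23 in KO for Tfh214 and Tfh4, a ratio of 2.33 (1.27 to 4.50). Mrpl55 (chromosome 11, 59015620 to 59016376) held 10 and 28 and 5 and 20 reads, at 2.54 (1.40 to 4.88), with equal ratios of 2.59 in WT and 2.58 in KO. Man1a and Slc9a9 were uneven, with WT ratios of 1.18 and 1.28 against 9.35 and 9.67 in KO, where Tfh214 held 2 reads at each.

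Of the 31 lower peaks, 11 lay at start sites, 8 between genes, 7 in introns and 5 in other parts, and limma called 13. An intron 3 peak of Mef2c, a transcription factor gene (chromosome 13, 83748263 to 83748891), held 47 and 18 reads in WT and 23 and 26 in KO, at 0.498 (0.334 to 0.737). The start site of Sidt1 (chromosome 16, 44332508 to 44333214), a membrane protein gene of lymphocytes, held 25 and 13 reads in WT and 29 and 21 in KO, with ratios of 0.482 and 0.467. The start site of Zfp870 (chromosome 17, 33028063 to 33028628) held 32 and 12 and 23 and 13 reads, at 0.360 (0.215 to 0.588). The lowest of the 31 was a 5′ UTR peak of Gpr19 (chromosome 6, 134833779 to 134834430), at 0.288 (0.152 to 0.521). The 31 ratios lay between 0.337 and 0.584 after median-of-ratios scaling, and all 31 intervals stayed below 1. The 31 were chosen by these same ratios and the scaling moves all of them by one factor, so this outcome was largely fixed by the choice.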

How the data were processed

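The authors deposited 1 table of peaks with CPM values per library, each column summing to 1000000. Per the submitters' processing notes, Bowtie 1.3.0, MACS2 2.0, HOMER and the build mm9 were used; their roles, and how duplicates and cut positions were treated, were not given in the sources used here. Whole reads were recovered by dividing by the value of 1 read (at least 99.9989% of the values of a library came out whole within 0.02). Reads were summed per gene symbol as deposited and per 1 Mb window. Ratios came from reads over library totals. limma 3.58.1 with a variance trend was fitted to log2(CPM + 1) with genotype and population as terms (2 residual degrees of freedom). Sharing the spread across peaks brought the total to 71.56 degrees of freedom at peak level. Peaks and genes needed a mean of at least 20 reads and windows 100. edgeR 4.0.16 and DESeq2 1.42.0 (R 4.3.3) on recovered reads, other scalings, filters and left-out libraries were alternatives. The fit was also run on simulated counts with counting error only and no common shift of strong peaks, so that run does not bear on the calls made here. Python 3.11.15 with scipy 1.17.1 gave intervals.

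Genes always described were Il21, Cxcr5, Il4, Il13, Bcl6, Maf, Pdcd1, Icos, Cd40lg, Tbx21, Ifng, Gata3, Prdm1, Il4ra, Stat6 and Havcr2. The rule further named up to 12 peaks per direction by pooled ratio, up to 10 called peaks by p, up to 3 genes per list and direction and up to 5 windows per direction; the text gives a part of these. The members and lists were chosen with earlier results of these data known.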

Additional observations from a re-analysis of the deposited data

Results flagged for a closer look

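At 5 of the 16 genes described throughout, the Tfh4 to Tfh214 ratio lay on opposite sides of 1 in WT and KO, each pair being 1 comparison of 2 libraries, and these differences were not tested. Ifng, the type 1 cytokine gene, was at 0.403 (95% counting interval 0.171 to 0.880) in WT and 1.29 (0.550 to 3.26) in KO, on 23 and 10 and 9 and 18 reads. Prdm1, which encodes Blimp-1, the antagonist of BCL6, was at 0.676 (0.493 to 0.923) and 1.04 (0.737 to 1.49). Bcl6 itself was at 1.13 (0.810 to 1.58) and 0.809 (0.542 to 1.21). Il4ra was at 1.21 (0.841 to 1.74) and 0.878 (0.593 to 1.31). Il13 was at 1.13 (0.426 to 3.09) and 0.860 (0.145 to 5.87). Only for Ifng and Prdm1 in WT did an interval exclude 1.

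Peaks away from start sites with 31 to 60 reads also lay on opposite sides, at 0.95 (0.941 to 0.959) in WT and 1.08 (1.07 to 1.09) in KO, which was not tested either.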

How the results depend on the processing

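The 178 called peaks became 0 with median-of-ratios or TMM scaling, without the variance trend, without the genotype block, in edgeR and in DESeq2. They became 4 with only the 4 libraries, 111 at a mean of at least 10 reads and 9 with no filter. Leaving out one library gave 4 to 252 peaks, 0 to 15 genes and 0 windows. Called genes went from 0 to 1 with no filter, 156 from start-site peaks and 182 from the highest peak. Peaks 2-fold higher and lower went from 600 and 283 to 14069 and 5033 at a minimum of 10 reads and to 5 and 31 at 40. Scaling by median-of-ratios gave 880 and 114 peaks, equal weight 494 and 187, the WT pair alone 733 and 954 and the KO pair alone 987 and 566. Genes higher and lower went from 892 and 369 to 1928 and 91 with median-of-ratios, to 1423 and 695 at 10 reads, to 393 and 178 at 40, to 1534 and 951 in WT alone and to 1596 and 1308 in KO alone. Start-site peaks gave 167 and 480 genes and the highest peak 211 and 596. The start-site share fell by 4.81 points in KO when only peaks averaging 20 reads or more were used. Among named genes with intervals off 1, those that changed side were Nr4a3 (0.922) and Zbtb46 (0.961) with start-site peaks, and Nfatc1 (1.03) with median-of-ratios. The cause was not tested, beyond fewer features, reads or libraries where a setting removes them. No paired analysis by replicate number was possible because the labels give no replicate numbers; genotype is the block. Depth limits single peaks, most of which hold under 20 reads over 6 libraries.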
